A study of Mus musculus with 6 samples.

Results

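Interferon-stimulated genes are the genes that a cell switches on after interferon reaches its surface. A list of 35 such genes was looked up by symbol in the gene counts of mouse mammary basal epithelial cells with and without vimentin, and 34 of the 35 were among the 23337 genes counted. The symbol Ifi27 was not in the files. RefSeq gives Ifi27l1 as an older symbol of that gene, and its values are given apart from the list. All 34 genes found had enough reads to be tested.

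Vimentin is an intermediate filament protein, and the study asked what its loss does in the mammary gland. The libraries came from 2 wild-type samples (Vimwt/wt) and 4 samples homozygous for the knockout allele (Vimtm1Cba/tm1Cba), all from 15-week-old mice of mixed 129/Sv and C57BL/6 background and no treatment is named in the labels. Each sample pooled cells of 2 to 3 mice, and the deletion is present in every cell of the animal, not in the basal layer alone. Cells were gated as live, free of CD45 and CD31, low in CD24 and high in CD49f, which marks the outer, contractile layer of the gland. The names of the deposited files carry 2 day codes, which put wild type 1 and knockout 1 and 2 in experiment 1 and wild type 2 and knockout 3 and 4 in experiment 2.

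Type I and type III interferons signal through the kinases Jak1 and Tyk2 to a complex that contains Stat2 and Irf9 and binds the interferon-stimulated response element (ISRE) in promoters. Interferon-gamma signals through Jak1 and Jak2 to factors that bind the gamma-activated site (GAS), and raises Irf1, a transcription factor that binds ISRE-like sites as well. Many of these genes are also kept at a low level in cells that have met no virus. Their products sense viral RNA, block viral entry, translation and replication, or load peptides on MHC class I.

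The labels were checked on the targeted gene and on cell markers. Vim was at 215 and 241 CPM (counts scaled to a common library size) in wild type 1 and 2, against 92.4 to 111 CPM in the 4 knockout libraries, a log2 difference of -1.12 (SE 0.12, edgeR adjusted p = 0.019). Summed levels of 14 basal markers ran from 20946 to 24737 CPM over the 6 libraries. The 18 leukocyte markers counted summed to 29.4 and 29.99 CPM in wild type and 20.3 to 33.1 CPM in knockout, with 2 of them at 0 in all libraries and 11 at 0 in at least 1. Most of that sum was Cd68, at 24.5 and 24.7 CPM in wild type and 16.6 to 30.8 CPM in knockout. The 13 endothelial markers summed to 256 CPM in wild type 1, 112 in wild type 2 and 67.1 to 86.1 in knockout, and none was at 0. Their median log2 fold change was -1.97, with all 13 negative and 1, Sele, called by edgeR (adjusted p = 0.0218). The 7 pericyte markers summed to 298 and 308 CPM in wild type and 426 to 540 CPM in knockout, through Mcam, which basal cells also express, while the other 6 had negative log2 fold changes. Total counts were 25347967 to 31200622 per library. One count corresponded to 0.0304 to 0.0395 CPM.

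Among the libraries, knockout 2 stood apart in the interferon-stimulated genes. It was the lowest of the 6 libraries for 19 of the 34 genes, or 55.9%, while it was the lowest for 20.0% of all 13925 tested genes. Relative to each gene's mean log2 CPM over the 6 libraries, the median over the 34 genes was -0.43 in knockout 2 and 0.0009 over all tested genes. In wild type 1 and 2 the median over the 34 genes was 0.05 and 0.21. In knockout 1, 3 and 4 it was 0.17, -0.04 and 0.10. Knockout 2 had the smallest total count and a scaling factor of 0.999. Its summed leukocyte marker level of 33.1 CPM was the highest of the 6 libraries through Cd68 alone, and the median of the 4 leukocyte markers tested, relative to their means, was -0.50 in it, the lowest of the 6. Endothelial markers summed to 86.1 CPM in it, the highest of the knockout libraries. The plot of log2 fold changes shows each gene with and without this library, and the text gives the value without it for the genes described in most detail. In libraries from sorted cell populations, fewer cells carrying a transcript and less transcript per cell cannot be told apart.

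**Figure D1:**
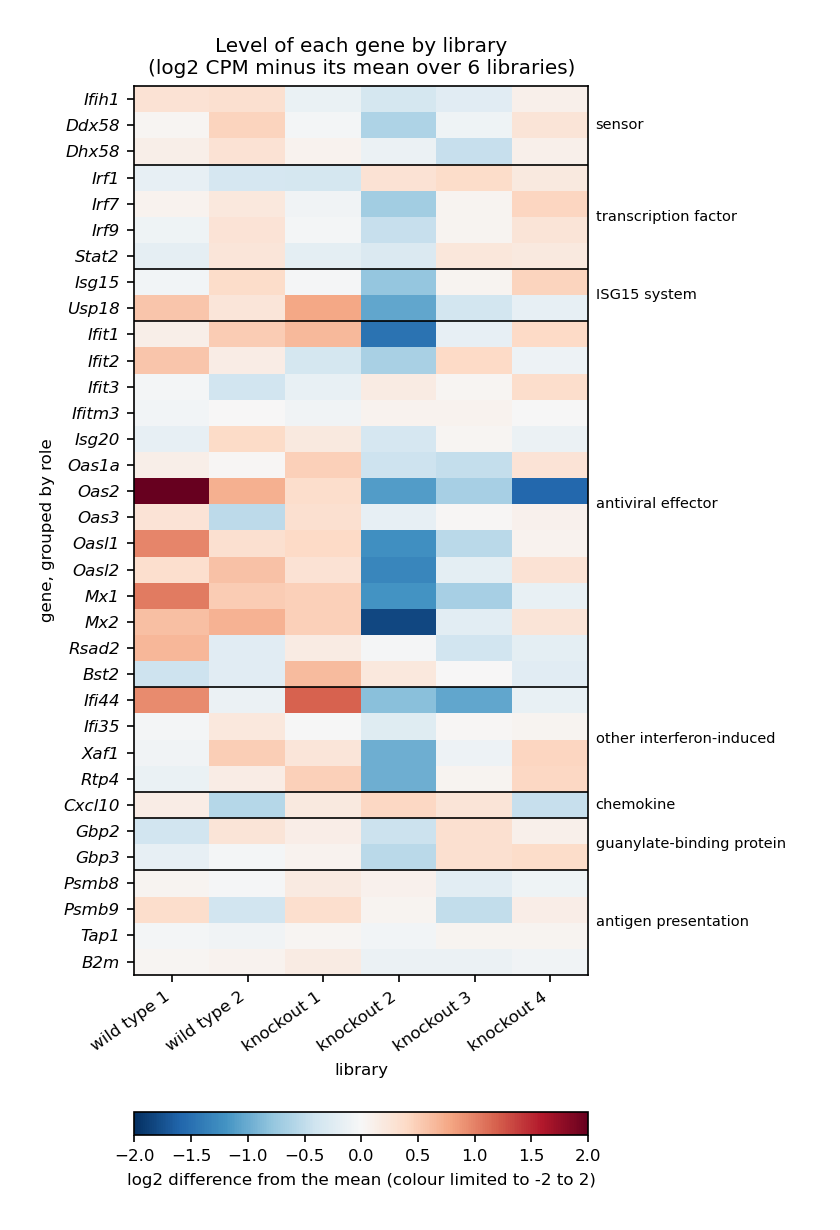
Level of each of the 34 genes (rows, grouped by role) in each library (columns), as log2 CPM minus the gene's mean over the 6 libraries, with blue below and red above the mean. Knockout 2 is the lowest library for 19 of the 34 genes, most deeply in Mx2 and Ifit1, while Ifitm3 and Tap1 hardly differ between libraries.

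To show the sequences by which this group of genes is recognised, promoter windows of RefSeq (GRCm38.p6, the same assembly as mm10) were searched for 2 short motifs. The windows run from 250 bases before to 50 bases after each annotated start and were found for 28 of the 35 genes. No window was in the table for Ifi27, Oas2, Mx1, Mx2, Usp18, Dhx58 and Rtp4. The core of the ISRE, written GAAANNGAA and searched on both strands, was in the windows of 16 of the 28 genes, or 57.1%, against 8.56% of all 32851 windows and 9.76% of all genes with a window. At least 2 ISRE cores in 1 window, overlapping matches included, were found for 9 of these genes and in 0.624% of all windows. The GAS letters TTCNNNGAA, which read the same on both strands, were in the windows of 8 of the 28 genes (28.6%), against 8.3% of all windows. A match describes letters only, and binding was not measured.

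The stretches below are the 150 bases before the annotated start of 7 of these genes, 5′ to 3′ on the gene's strand, with each match in capitals. Isg15, Ifit1, Ifit3, Oas3 and Gbp3 are examples with more than 1 ISRE core in this stretch, as Oas1a and Bst2 also have. Irf1 and Psmb8 are examples with the GAS letters, and neither was lowest in knockout 2. Of the ISRE examples, Ifit3 and Oas3 were lowest in wild type 2, and Isg15, Ifit1 and Gbp3 in knockout 2. Of all 8 genes with the GAS letters 3 were lowest there, and of the 20 without them 12 were, a difference that was not tested.
Isg15, chr4:156200819-156200968, minus strand, ISRE cores in capitals: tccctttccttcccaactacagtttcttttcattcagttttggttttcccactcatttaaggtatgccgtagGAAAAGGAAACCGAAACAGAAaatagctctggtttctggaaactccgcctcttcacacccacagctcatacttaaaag
Ifit1, chr19:34640739-34640888, plus strand, ISRE cores in capitals: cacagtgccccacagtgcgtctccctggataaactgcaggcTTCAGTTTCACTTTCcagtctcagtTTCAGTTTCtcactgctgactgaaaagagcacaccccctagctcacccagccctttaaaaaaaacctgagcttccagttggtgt
Ifit3, chr19:34583379-34583528, plus strand, ISRE cores in capitals: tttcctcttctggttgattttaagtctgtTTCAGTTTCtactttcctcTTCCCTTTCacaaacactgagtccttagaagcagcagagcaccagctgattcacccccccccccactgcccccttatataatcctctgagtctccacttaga
Oas3, chr5:120777660-120777809, minus strand, ISRE cores in capitals: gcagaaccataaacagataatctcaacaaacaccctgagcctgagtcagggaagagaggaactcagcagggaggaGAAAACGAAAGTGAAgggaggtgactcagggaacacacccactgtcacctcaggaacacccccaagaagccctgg
Gbp3, chr3:142559894-142560043, plus strand, ISRE cores in capitals: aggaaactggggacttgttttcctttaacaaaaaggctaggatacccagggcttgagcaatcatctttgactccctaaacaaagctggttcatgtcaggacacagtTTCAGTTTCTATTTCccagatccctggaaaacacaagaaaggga
Irf1, chr11:53769864-53770013, plus strand, GAS letters in capitals: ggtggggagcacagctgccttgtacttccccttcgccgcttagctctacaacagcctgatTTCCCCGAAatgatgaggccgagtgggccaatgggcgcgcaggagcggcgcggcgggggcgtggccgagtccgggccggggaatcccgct
Psmb8, chr17:34198045-34198194, plus strand, GAS letters in capitals: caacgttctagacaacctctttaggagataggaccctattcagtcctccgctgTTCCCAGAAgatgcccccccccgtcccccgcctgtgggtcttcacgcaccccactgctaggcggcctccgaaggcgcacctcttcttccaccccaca

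In Isg15 the 3 cores begin 78, 72 and 66 bases before the start and run into each other. In Ifit1 they begin 109, 103 and 84 bases before it, in the opposite orientation. Of the 16 genes with an ISRE core in the window 7 were lowest in knockout 2, and of the 12 without one 8 were, a difference that was not tested. Of the 6 counted genes with no window in the table, 4 (Mx1, Mx2, Usp18 and Rtp4) were lowest there. Over all tested genes with a window, 21.9% of the 830 with a core and 19.7% of the 8977 without one were lowest in knockout 2. For the GAS letters these shares were 22.4% of 829 and 19.65% of 8978.

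Levels spanned 4 orders of magnitude. In TPM (a transcript level that also corrects for gene length), means over the 6 libraries ran from 0.228 for Oas3 and 0.326 for Oas2 to 1170 for B2m and 2414 for Ifitm3. The next in order were Irf1 at 142, Irf9 at 96.8, Ifi35 at 77.4, Stat2 at 69.0 and Psmb8 at 53.8 TPM. Isg15 stood at 40.0, Mx2 at 26.9 and Ifit1 at 9.41 TPM. Irf9 (69.7 to 112 TPM) was above Ifi35, Stat2 and Psmb8 in all 6 libraries. Ifi35 (65.9 to 85.6 TPM) and Stat2 (56.5 to 79.8) changed places between libraries, and so did Stat2 and Psmb8 (46.4 to 61.6). The RIG-I gene Ddx58 at 37.9, Gbp2 at 37.6 and Tap1 at 35.5 TPM also changed places between libraries. Ifi27l1 was at 201 TPM.

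No interferon-stimulated gene was called between knockout and wild type by edgeR's quasi-likelihood test with Benjamini-Hochberg adjustment over all tested genes. Of the 34, 0 had an adjusted p under 0.05, where 0.0790% of all tested genes did, and 3 had an unadjusted p under 0.05 (Oas2, Ifih1 and Mx1). These 3 were 8.82% of the 34, close to the 8.57% of all tested genes at that level. DESeq2 and limma-voom called 0 of the 34 as well, with 4 each at an unadjusted p under 0.05 (the same 3 and Oasl1), or 11.8%, against 8.9% and 8.45% of all tested genes. With the experiment as a replicate block 0 were called, against 1.56% of all tested genes. Log2 fold changes, knockout minus wild type, were negative for 23 and positive for 11, with a median of -0.14, while the median over all tested genes was -0.01. Without knockout 2 they were negative for 17 and positive for 17, with a median of -0.0029. As knockout 2 was lowest for 19 of the 34 genes, leaving it out was bound to raise many of these estimates. With any other single library left out the median lay between -0.21 (without wild type 1) and -0.068 (without wild type 2).

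**Figure D2:**
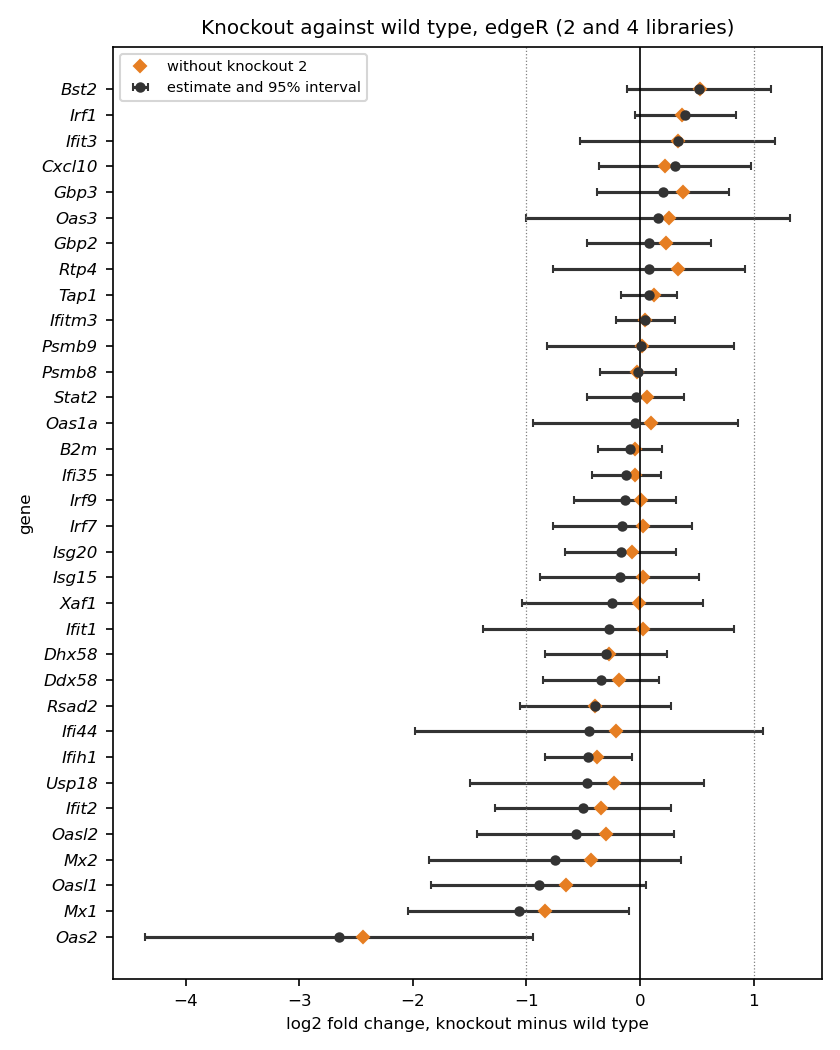
Log2 fold change of each gene, knockout minus wild type, by edgeR over 2 wild-type and 4 knockout libraries (circles, with unadjusted 95% intervals) and without knockout 2 (diamonds). Estimates run from -2.65 in Oas2 to 0.52 in Bst2, and most of the genes on the left move towards 0 without knockout 2.

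In the model with genotype alone, the 95% interval of the difference lay within 2-fold in either direction for 20 of the 34 genes. For the other 14 the interval held a 2-fold difference in at least 1 direction, so the data do not show that these genes were alike in the 2 genotypes. With the experiment as a replicate block some SEs were smaller (Stat2, 0.09 against 0.19) and some larger (Ifit1, 0.56 against 0.48). The count of intervals within 2-fold was not repeated there. All 4 knockout libraries were below both wild-type libraries for 6 genes (Mx1, Mx2, Oas2, Oasl2, Ifih1 and Dhx58), against 8.57% of all tested genes. All 4 were above both for 1 gene, Bst2, against 7.60% of all tested genes.

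Among the cytosolic RNA sensors, Ifih1 encodes MDA5, which binds long double-stranded RNA. It was at 15.6 and 15.97 CPM in wild type 1 and 2, against 11.6, 9.92, 10.9 and 13.6 CPM in knockout 1 to 4. The groups did not overlap, and the wild type averaged 15.8 ± 0.262 CPM (SD, n = 2) against 11.5 ± 1.57 CPM (SD, n = 4) for the knockout. Its log2 fold change was -0.46 (SE 0.17, edgeR adjusted p = 0.489), with a 95% interval of -0.84 to -0.07. Within the experiments it was -0.54 and -0.39. It was -0.37 without knockout 2.

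Ddx58 encodes RIG-I, the sensor of RNA ends made by viruses. It was at 65.5 and 86.7 CPM in wild type and 62.1, 41.7, 59.7 and 76.4 CPM in knockout, so that the groups overlapped and knockout 2 was lowest. Dhx58 encodes LGP2, a regulator of the other two sensors, and was at 4.78 and 5.39 CPM in the wild-type libraries and 4.59, 4.03, 3.16 and 4.72 CPM in knockout. Here the groups did not overlap, though knockout 4 was just under wild type 1, and knockout 3 was lowest. Their log2 fold changes were -0.34 (SE 0.22, edgeR adjusted p = 0.785) and -0.30 (SE 0.24, edgeR adjusted p = 0.855). That of Ddx58 was -0.19 without knockout 2 and -0.13 without wild type 2, and that of Dhx58 was -0.19 without knockout 3.

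The 4 transcription factors behaved in 2 ways. Irf9, the DNA-binding part of the type I complex, was at 84.2 and 109 CPM in wild type and 87.4, 64.8, 92.5 and 107 CPM in knockout. Irf7, which amplifies type I interferon production, was at 22.6 and 25.1 CPM in wild type and 20.6, 13.3, 22.4 and 29.3 CPM in knockout. Both had overlapping groups and were lowest in knockout 2. Stat2 had its lowest value, 85.8 CPM, in the same library, and ranged from 91.4 to 123 CPM in the others. Log2 fold changes were -0.13, -0.16 and -0.04 for Irf9, Irf7 and Stat2.

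Irf1 went the other way. It was at 145 and 129 CPM in wild type 1 and 2, 128 CPM in knockout 1, and 198, 209 and 186 CPM in knockout 2, 3 and 4. Knockout 1 thus lay with the wild type, and knockout 2 was among the high libraries. The wild type averaged 137 ± 10.8 CPM (SD, n = 2) and the knockout 180 ± 36.3 CPM (SD, n = 4). The estimated log2 fold change was 0.40 (SE 0.19, edgeR adjusted p = 0.65), with a 95% interval of -0.05 to 0.84. Within experiments 1 and 2 it was 0.14 and 0.61.

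Isg15 encodes a ubiquitin-like protein that is joined to other proteins, and Usp18 the protease that removes it and also damps interferon receptor signalling. Isg15 was at 9.79 and 13.1 CPM in wild type and 10.1, 5.93, 10.6 and 13.9 CPM in knockout. Usp18 was at 4.44 and 3.58 CPM in wild type and 5.16, 1.42, 2.32 and 2.68 CPM in knockout. In both genes knockout 2 was lowest and the groups overlapped, and in Usp18 the knockout libraries differed by 3.62-fold among themselves. Log2 fold changes were -0.18 (SE 0.30, edgeR adjusted p = 0.959) and -0.47 (SE 0.45, edgeR adjusted p = 0.909). Without knockout 2 they were 0.02 and -0.23.

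The 14 antiviral effectors held the widest differences between libraries. Mx2 encodes a dynamin-like GTPase of the antiviral Mx family, whose activity in these mice was not measured. It was at 29.96 and 32.2 CPM in wild type 1 and 2, against 27.6, 5.57, 17.2 and 23.6 CPM in knockout 1 to 4. Every knockout library was below both wild-type libraries, and knockout 1 and knockout 2, of the same experiment, were 4.95-fold apart. Mean levels were 31.1 ± 1.60 (SD, n = 2) for wild-type and 18.5 ± 9.62 CPM (SD, n = 4) for knockout libraries, so the spread among the knockouts was wide beside the difference. The log2 fold change was -0.75 (SE 0.48, edgeR adjusted p = 0.785), and -0.43 without knockout 2.

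Mx1, its neighbour on chromosome 16, encodes the nuclear influenza restriction factor, which common laboratory strains carry in a defective form. It was at 6.75 and 4.66 CPM in wild type and 4.53, 1.38, 2.02 and 2.91 CPM in knockout. The groups did not overlap, with knockout 1 just under wild type 2, and the means were 5.70 ± 1.48 (SD, n = 2) and 2.71 ± 1.36 CPM (SD, n = 4). Its log2 fold change was -1.07 (SE 0.42, edgeR adjusted p = 0.53), with a 95% interval of -2.04 to -0.10, and -0.84 without knockout 2. Wild type 1, the higher of the wild-type libraries, also held the most endothelial marker RNA, whose part in this result was not tested. Without wild type 1 the log2 fold change was -0.76.

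**Figure D3:**
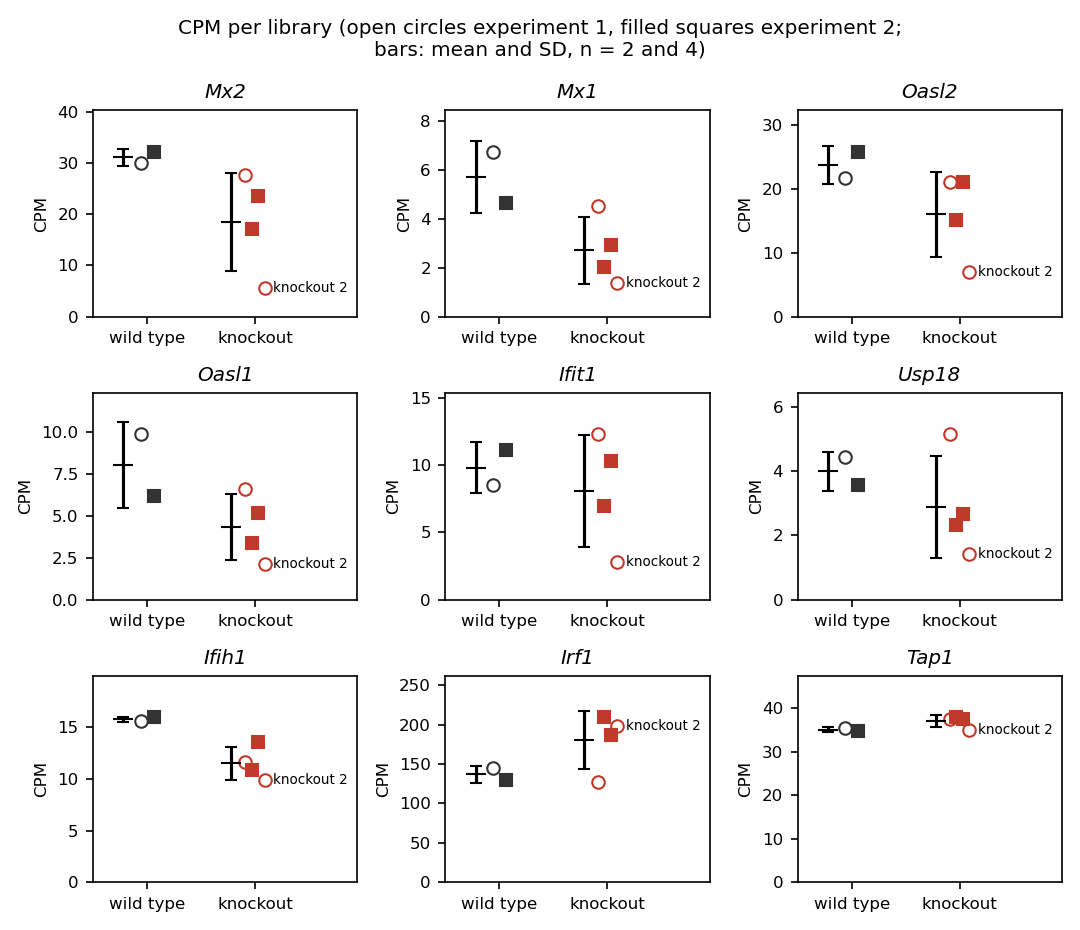
CPM of 9 genes in each wild-type and knockout library, with open circles for experiment 1 and filled squares for experiment 2, and bars for the mean and SD (n = 2 and 4). Knockout 2 has the lowest point in Mx2, Mx1, Oasl2, Oasl1, Ifit1, Usp18 and Ifih1, whereas in Irf1 it lies among the high libraries and in Tap1 all 6 libraries lie between 34.7 and 37.9 CPM.

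The oligoadenylate synthetases make the second messenger that activates RNase L, and the Oasl proteins are relatives. Oasl2 was at 21.7 and 25.9 CPM in wild type and 21.0, 6.95, 15.1 and 21.1 CPM in knockout, with knockout 2 far below the rest. Oasl1, a relative known to limit translation of Irf7, was at 9.85 and 6.197 CPM in wild type and 6.60, 2.09, 3.39 and 5.20 CPM in knockout. The groups of Oasl2 did not overlap, by a small gap, and those of Oasl1 did. Log2 fold changes were -0.57 (SE 0.38, edgeR adjusted p = 0.799) and -0.89 (SE 0.41, edgeR adjusted p = 0.616). Without knockout 2 they were -0.30 and -0.65, and Oasl1 was at -0.50 without wild type 1.

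Oas2 had the largest estimate of the 34 genes and rested on few reads. Wild type 1 and 2 held 50 and 12 reads, and knockout 1 to 4 held 11, 2, 4 and 1. Wild type 1 alone held 50 of the 80 reads. The estimated log2 fold change was -2.65 (SE 0.75, edgeR adjusted p = 0.317, or 0.07 with the experiment as a replicate block), and -1.52 without wild type 1. As a ratio of summed reads, knockout over wild type was 0.152 (exact 95% counting interval 0.0847 to 0.261). That interval covers counting error only. With the spread between libraries, the 95% interval of the log2 fold change was -4.36 to -0.94. Endothelial markers were also highest in wild type 1, and their part in this result was not tested.

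Oas1a and Oas3 were sparse. Oas1a had 46 and 34 reads in the wild-type libraries against 58, 24, 27 and 40 in the knockouts, and Oas3 15 and 6 against 15, 8, 11 and 10. The groups overlapped in both. Their count ratios, knockout over wild type, were 0.976 (exact 95% counting interval 0.739 to 1.30) and 1.10 (0.639 to 1.94). These intervals pool the reads of each genotype and leave out the spread between libraries. With that spread, the 95% intervals of the log2 fold changes were -0.94 to 0.86 and -1.01 to 1.32.

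Ifit1 encodes the tetratricopeptide protein that binds viral RNA caps and blocks their translation. It was at 8.49 and 11.1 CPM in wild type and 12.3, 2.77, 6.95 and 10.3 CPM in knockout. The highest and the lowest library were both knockouts of experiment 1, 4.43-fold apart. Wild type averaged 9.80 ± 1.87 CPM (SD, n = 2) and knockout 8.07 ± 4.16 CPM (SD, n = 4). The log2 fold change was -0.28 (SE 0.48, edgeR adjusted p = 0.959), with a 95% interval of -1.38 to 0.83, and 0.02 without knockout 2.

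The neighbouring Ifit2 and Ifit3 on chromosome 19 did not share this pattern in full. Ifit2, also lowest in knockout 2 at 1.502 CPM, was at 3.53 and 2.66 CPM in wild type and 1.85 to 3.16 CPM in the other knockouts. Ifit3 was between 0.65 and 1.14 CPM in all libraries and was lowest in wild type 2. Ifit3 is a near copy of Ifit3b: 51.2% of its 50-base stretches occur in another gene's transcripts. Reads from such stretches map to more than 1 place and were left out of the counts, so its level is uncertain. The same holds for Oas1a, with 57.6% of its stretches shared, chiefly with Oas1g, and to a lesser degree for Rtp4 (11.6%) and Ifitm3 (10.02%). The other 31 genes shared at most 7.13%.

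Ifitm3, which blocks the fusion of entering viruses with the endosome, was at 521 and 544 CPM in wild type and 516 to 573 CPM in knockout, with a log2 difference of 0.05 (SE 0.11, edgeR adjusted p = 0.968). The highest and the lowest library differed by 1.11-fold. Rsad2 encodes viperin, which makes a chain-terminating nucleotide. It was at 7.27 CPM in wild type 1, while the other 5 libraries lay between 3.49 and 5.09 CPM. Isg20, an exonuclease gene, was between 9.36 and 15.4 CPM, with overlapping groups.

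Bst2 encodes tetherin, which holds budding virus at the cell surface. It was at 3.71 and 4.23 CPM in wild type and 7.70, 5.77, 5.005 and 4.25 CPM in knockout. All knockout libraries were above the wild type, knockout 4 only just. Its log2 fold change was 0.52 (SE 0.28, edgeR adjusted p = 0.695). It was 0.84 within experiment 1 and 0.12 within experiment 2.

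Of the other interferon-induced genes, Xaf1, which codes for a partner of the apoptosis inhibitor XIAP, was at 24.4 and 36.2 CPM in wild type and 30.4, 13.1, 23.95 and 34.8 CPM in knockout. Rtp4, a receptor transporter gene, was at 7.09 and 8.62 CPM in wild type and 10.8, 3.91, 8.09 and 10.4 CPM in knockout. In both, knockout 2 was lowest by a wide margin and the other 5 libraries overlapped. Ifi44 was at 2.34 and 1.08 CPM in wild type and 2.77, 0.63, 0.54 and 1.06 CPM in knockout, so wild type 1 and knockout 1, of experiment 1, were high together. Ifi35 moved by 1.36-fold between its extreme libraries and Ifi27l1 by 1.23-fold.

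Cxcl10 encodes a chemokine for activated T cells. It was at 9.73 and 5.93 CPM in wild type and 10.1, 11.8, 10.6 and 6.38 CPM in knockout, with knockout 2 highest. The low libraries, wild type 2 and knockout 4, belonged to experiment 2, and the log2 fold change was 0.31 (SE 0.29, edgeR adjusted p = 0.907). Leaving out wild type 1 gave 0.73 and leaving out wild type 2 gave 0.0011, so its size turned on which wild-type library was used. With knockout 4 or knockout 2 left out it was 0.46 or 0.22.

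The guanylate-binding proteins attack the vacuoles of intracellular pathogens. Gbp2 was at 24.3 and 37.7 CPM in wild type and 34.6, 23.3, 39.3 and 33.9 CPM in knockout. Gbp3 was at 10.9 and 11.8 CPM in wild type and 12.8, 8.34, 15.2 and 15.7 CPM in knockout. Knockout 2 was the lowest library in both, and the groups overlapped. Their log2 fold changes were 0.08 and 0.20, and without knockout 2 they were 0.23 and 0.38.

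The 4 genes of antigen presentation were the steadiest group. Psmb8 and Psmb9 encode immunoproteasome subunits, Tap1 the peptide transporter and B2m the light chain of MHC class I. Tap1 was at 35.5 and 34.7 CPM in wild type and 37.5, 34.97, 37.9 and 37.6 CPM in knockout, a log2 difference of 0.08 (95% interval -0.17 to 0.32). B2m was at 359 and 367 CPM in wild type and 391.7, 322, 322 and 331 CPM in knockout (log2 fold change -0.09, 95% interval -0.37 to 0.20). Psmb8 ran from 19.7 to 25.8 CPM (log2 fold change -0.02, 95% interval -0.35 to 0.32). In these 3 genes the groups overlapped, and a 2-fold difference lay outside each interval. Psmb9, at 1.24 to 2.28 CPM, had a wider interval of -0.82 to 0.83, which also left out a 2-fold difference. None of the 4 was lowest in knockout 2, and 3 were lowest in knockout 3. For B2m this rests on a near tie, at 322.35 CPM in knockout 2 and 322.31 CPM in knockout 3. Tap1 in knockout 2 was the lowest of the knockout libraries, though above wild type 2.

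The count of lowest libraries by role shows where knockout 2 was low. It was lowest for 2 of 3 sensors, 3 of 4 transcription factors, both genes of the ISG15 system, 7 of 14 antiviral effectors, 3 of 4 other interferon-induced genes, both guanylate-binding proteins, 0 of 4 antigen presentation genes and not for the chemokine. In B2m, an antigen presentation gene, it was all but level with knockout 3, the lowest. Of the 18 genes with a mean of at least 10 CPM, 72.2% were lowest in knockout 2, and the share over all tested genes at that level was not computed. Wild type 1 and knockout 4 were lowest for 1 gene each, knockout 1 for 2, wild type 2 for 4 and knockout 3 for 7. Over all tested genes these libraries were lowest for 19.94%, 15.49%, 12.25%, 19.82% and 12.45%, in the same order. The highest library was wild type 2 for 10 genes (29.41%), knockout 1 for 9 (26.47%) and wild type 1 for 6 (17.65%). Over all tested genes these shares were 20.46%, 13.21% and 21.59%.

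**Figure D4:**
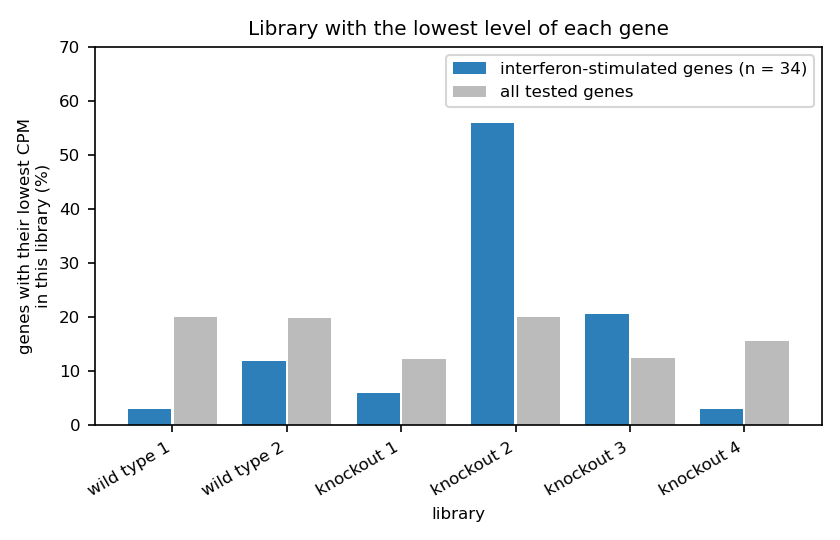
Share of genes (%) whose lowest CPM fell in each library, for the 34 interferon-stimulated genes (blue) and all 13925 tested genes (grey). Knockout 2 holds 55.9% of the interferon-stimulated genes and 20.0% of all tested genes.

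Outside the list of 35, other genes of the pathway were read from lists made in the same way. The interferon ligands that could be read were close to absent from the counts. Of 21 ligand genes listed, 17 were among the genes counted, and none of the 17 is a type III interferon. Of the 17, 13 had 0 counts in all 6 libraries. The 4 others (Ifnb1, Ifne, Ifnab and Ifnk) had at most 6 counts in any library and 32 over all 6. No ligand was tested. Of 6 receptor genes listed, 5 were counted and tested, and 0 were called. Ifnar1, a chain of the type I receptor, was at 63.7 and 64.7 CPM in wild type and 53.6 to 67.7 CPM in knockout. Ifngr2, a chain of the interferon-gamma receptor, was at 19.5 and 23.98 CPM in wild type and 25.8, 27.1, 32.8 and 27.9 CPM in knockout, without overlap (log2 fold change 0.39, SE 0.15, edgeR adjusted p = 0.53). Ifngr1 was between 46.7 and 60.3 CPM.

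Among signalling genes and inhibitors of the pathway, 13 genes were tested and 0 called, with a median log2 fold change of 0.10. The feedback inhibitor gene Socs1 was at 19.98 and 25.7 CPM in wild type and 25.3 to 30.3 CPM in knockout (log2 fold change 0.26, SE 0.15, edgeR adjusted p = 0.738), and the phosphatase gene Ptpn1 at 215 and 224 CPM in wild type and 223 to 279 CPM in knockout. Both were highest in knockout 2. Ptpn2 was at 94.8 and 112 CPM in wild type and 98.3 to 137 CPM in knockout. Of 13 other sensors, adaptors and kinases tested, 0 were called. The STING gene Tmem173, at 36.0 CPM in wild type 1 and 20.7 to 28.2 CPM elsewhere, Mavs, at 12.8 to 15.6 CPM, and Ikbke, at 37.8 CPM in wild type 1 and 15.5 to 27.5 CPM elsewhere, had the smallest p-values.

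Of the other interferon regulatory factors, 5 were tested and 0 called. Irf5 was at 8.70 and 14.3 CPM in wild type and 14.9 to 17.2 CPM in knockout, without overlap, and Irf8 was between 0.945 and 3.498 CPM.

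A longer list of other interferon-stimulated genes had 39 tested genes and 0 called. Of these 29 were negative and 10 positive, with a median log2 fold change of -0.17, and knockout 2 was the lowest library for 18. Slfn5, a Schlafen family gene, was at 11.5 and 5.35 CPM in wild type and 2.48, 2.69, 1.92 and 2.09 CPM in knockout, with no overlap between groups. Its log2 fold change was -1.88 (SE 0.31, edgeR adjusted p = 0.139), and with the experiment as a replicate block it fell (edgeR adjusted p = 0.00588). Wild type 1 was again the highest, as it was for the endothelial markers, whose part was not tested. Ifi27l2a, under 0.70 CPM everywhere, and Cd274, the gene of the ligand PD-L1, at 2.59 and 2.42 CPM in wild type and 3.27 to 4.19 CPM in knockout, were not called.

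The 10 tested interferon-gamma inducible GTPases had 0 calls and a median of -0.37, and 7 were lowest in knockout 2. Gbp9 (3.98 and 0.885 CPM in wild type, 0.395 to 0.840 CPM in knockout) and Gbp4 (2.71 and 1.12 CPM in wild type, 0.409 to 0.830 CPM in knockout) were high in wild type 1, while Gbp5 (1.82 and 1.31 CPM against 1.89 to 3.96 CPM) was higher in every knockout library. The chemokine Cxcl9 was at 2.83 CPM in wild type 1 and at most 0.830 CPM elsewhere. Ccl7 was at 10.1 and 7.85 CPM in wild type and 4.84 to 7.16 CPM in knockout, and Ccl2 between 26.2 and 31.9 CPM. None of the 4 chemokine genes tested was called. Gbp9, Gbp4 and Cxcl9 were highest in wild type 1, as were all 13 endothelial markers, whose part in these values was not tested.

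For MHC class I, 18 further genes were tested, 0 were called and the median log2 fold change was 0.03, with 2 lowest in knockout 2. H2-Q6 was at 8.58 and 9.28 CPM in wild type and 5.95 to 8.19 CPM in knockout, H2-Q4 at 224 and 178 CPM against 222 to 287 CPM, and the chaperone gene Calr at 659 and 667 CPM against 722 to 805 CPM. The groups did not overlap in H2-Q6 and Calr. The 7 class II genes, also 0 called, had a median of 0.37, and 5 of them were highest in knockout 2. H2-Ab1 was at 11.5 and 12.8 CPM in wild type and 8.55, 26.5, 21.6 and 18.3 CPM in knockout, H2-Eb1 at 5.26 and 4.97 CPM against 4.72, 11.5, 7.29 and 7.91 CPM, and Cd74 at 137 and 109 CPM against 79.03 to 122 CPM. Of the 4 leukocyte markers tested, Cd68 was highest in knockout 2 and 2 others, Csf1r and S100a8, were lowest there.

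**Figure D5:**
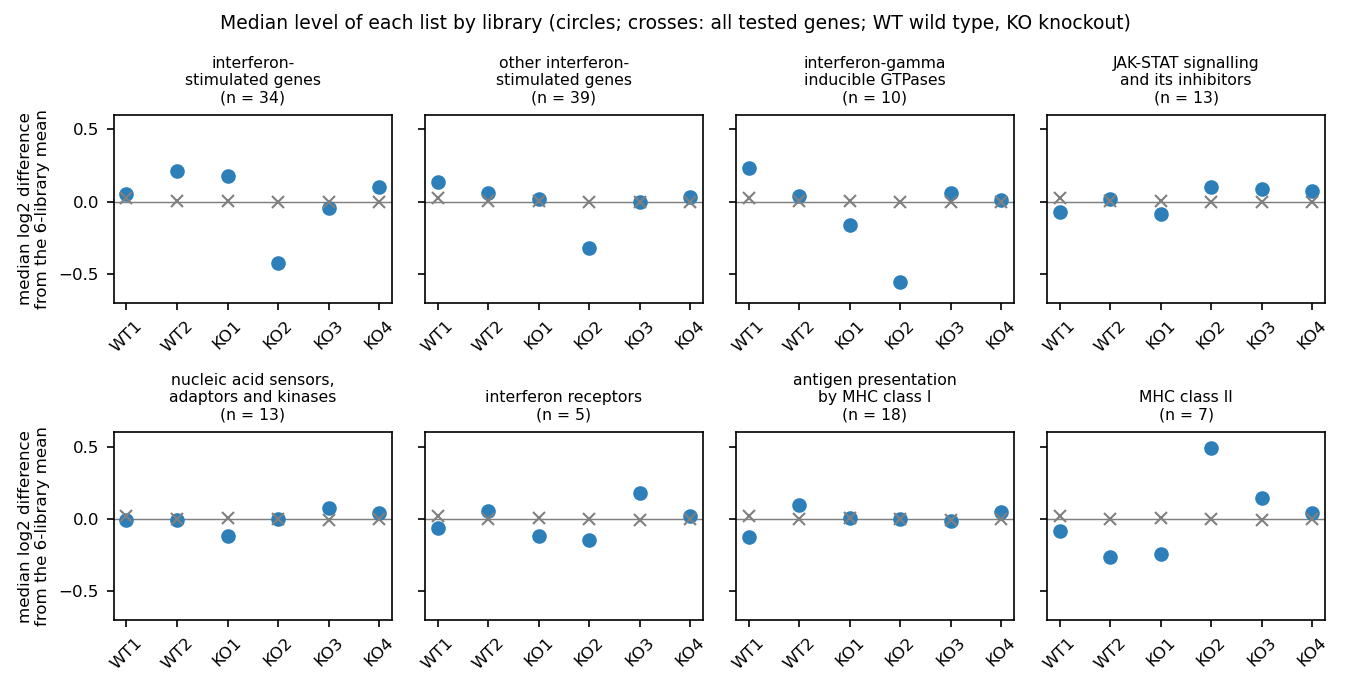
Median over each gene list of log2 CPM minus the gene's mean over the 6 libraries, for each library (circles), with the median over all tested genes as crosses. Knockout 2 is low in the interferon-stimulated genes (-0.43), the other interferon-stimulated genes (-0.32) and the interferon-gamma inducible GTPases (-0.55), near 0 in MHC class I genes and high in class II genes (0.49).

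Between the experiments, with genotype in the model, 1 of the 34 genes was called by edgeR, against 6.43% of all tested genes. Stat2 was higher in experiment 2, by a log2 difference of 0.44 (SE 0.09, edgeR adjusted p = 0.0179). Its values in experiment 1 were 92.4, 91.4 and 85.8 CPM and in experiment 2 123, 122 and 120 CPM, with no overlap. It was not called without wild type 1, wild type 2, knockout 3 or knockout 4, where no gene of the 34 was. Without knockout 1 there were 6 calls (Isg15, Irf9, Stat2, Ddx58, Xaf1 and Gbp2), and the share of all tested genes called was not computed. That fit kept knockout 2 as the only knockout of experiment 1, and each of the 6 genes was lowest in knockout 2. No gene of the 34 was called for a knockout effect that differed between the experiments by edgeR's interaction test, where 0% of all tested genes were called. The test had 2 residual degrees of freedom, so it could not show that the effects were alike. At an unadjusted p under 0.05 there were 0 of the 34 and 586 of all 13925 tested genes.

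Several of these genes lie side by side in the genome (mm10). Oas3 (chromosome 5, 120753098 to 120777659), Oas2 (120730333 to 120749848) and Oas1a (120896257 to 120907525) form a cluster, and so do Oasl2 (114896934 to 114912245) and Oasl1 (114923240 to 114937911) elsewhere on the chromosome. Ifit2 (chromosome 19, 34550694 to 34576534), Ifit3 (34583529 to 34588982) and Ifit1 (34640889 to 34650009) are neighbours, as are Mx1 (chromosome 16, 97447035 to 97462906) and Mx2 (97536081 to 97560901). Psmb9 (chromosome 17, 34182099 to 34187330), Tap1 (34187556 to 34197225) and Psmb8 lie within the MHC. In the pairs Oasl1 and Oasl2, and Mx1 and Mx2, both genes were lowest in knockout 2. Of the 3 Ifit genes this held for Ifit1 and Ifit2, and of Psmb9, Tap1 and Psmb8 for none.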

How the data were processed

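Messenger RNA of sorted basal cells was sequenced from 2 wild-type and 4 Vim knockout samples. The deposited values are raw gene counts. The authors counted reads with featureCounts 1.5.1 in strand setting 2 over exons of the UCSC mm10 annotation, without the options for multi-mapped or overlapping reads, per the file headers. STAR 2.5.2b and bcl2fastq 2.17 are named in the submitters' processing notes. The gene length in bases, another value deposited with the counts, served for TPM.

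Genes were kept with filterByExpr (13925 of 23337), scaled by TMM and tested with edgeR 4.0.16 (glmQLFit, robust, and glmQLFTest, 2-sided) with genotype as the only term, and called at a Benjamini-Hochberg adjusted p under 0.05. CPM values are on the TMM scale, and log2 CPM used a prior count of 2. Separate models held genotype and experiment, and their interaction. DESeq2 1.42.0, limma-voom 3.58.1, other scalings and filters and each library left out in turn were the alternatives. With 2 against 4 libraries the 15 arrangements allow no exact permutation p under 0.0667, so none is given. Pools of mice are separate samples, per the labels. The p-values of the model with genotype alone measure the spread between pools of a genotype, which includes any shift between the experiments. Scripts were tested on simulated data.

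Libraries were paired by experiment: deviations from group means correlated across genes for each wild-type library with the knockouts of its own day code (r = 0.32, 0.29, 0.25 and 0.41) and were of opposite sign across codes, which with 2 wild-type libraries mirrors the same values. Reads carry no molecular identifiers, so intervals of counts cover counting error only. All 35 genes are named, with the 3 smallest p-values of each other list and any called gene, except for results not reported here. The genes and lists were chosen with earlier results of these data known.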

Additional observations from a re-analysis of the deposited data

Results flagged for a closer look

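In 2 of the 34 genes, a value stood apart within the 4 knockout libraries. Tap1 was at 5.131 on the log2 CPM scale in knockout 2, below 5.23, 5.248 and 5.236 in knockout 1, 3 and 4, which lie close together. B2m was at 8.614 in knockout 1, above 8.333, 8.333 and 8.373 in knockout 2, 3 and 4. The wild-type libraries were at 5.152 and 5.119 in Tap1 and at 8.49 and 8.521 in B2m. Among 34 groups of 4 libraries, chance alone gives such a value in about 1 of 20.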

How the results depend on the processing

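No interferon-stimulated gene was called under any of 16 alternatives, and adding the replicate block left this at 0. The median of -0.14 moved by less than 0.223, the SD over the knockout libraries, under every alternative. That SD is larger than the median itself, so a move to 0 would also have passed. When 1 library was left out, the median ranged from -0.21 without wild type 1 to -0.0029 without knockout 2. In the other interferon lists DESeq2 and the experiment as a replicate block called 1 gene each, as did the fit without wild type 2 (Slfn5 each time), and leaving out other libraries called 0; the alternatives for these lists were chosen after seeing the data. Between experiments, 2 genes were called with no filter and by DESeq2 (Irf9 and Stat2), and 0 to 6 with 1 library left out. For these alternatives between experiments, the share of all tested genes called was not computed. The 34 genes gave 541 log2 fold changes, knockout minus wild type, under alternatives. Of these 506 kept their direction, 35 in 17 genes changed sign and 0 became called. The cause of the sign changes was not tested. With 1 library left out the ranges of these genes were -0.54 to 0.024 (Ifit1), -1.19 to 0.24 (Ifi44), -0.22 to 0.012 (Ifi35), -0.37 to 0.048 (Isg15), -0.40 to 0.12 (Isg20), -0.35 to 0.031 (Irf7), -0.29 to 0.064 (Irf9), -0.21 to 0.18 (Stat2), -0.23 to 0.10 (Oas1a), -0.23 to 0.76 (Oas3), -0.77 to 0.15 (Rsad2), -0.48 to 0.067 (Xaf1), -0.055 to 0.33 (Rtp4), -0.18 to 0.44 (Gbp2), -0.065 to 0.048 (Psmb8) and -0.31 to 0.46 (Psmb9). With the title number as a replicate block over 4 libraries, whose numbers do not pair them, values were -0.24 (Rtp4), -0.089 (Gbp2), -0.13 (Gbp3) and 0.12 (Psmb8). Psmb9 was at -0.0084 with library totals alone and -0.0028 by limma-voom. Of all tested genes edgeR called 11, or 217 with the experiment as a replicate block, and DESeq2 called 261. Both few reads (Oas2, SE 0.75) and spread between libraries at higher counts (Mx2, SE 0.48) limit precision.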
